A study of Mus musculus with 24 samples.

Results

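The nephron progenitor genes examined here are 10 of the 54393 genes in each deposited table: Six2, Cited1, Eya1, Osr1, Meox1, Crym, Gdnf, Itga8, Sall1 and Pax2. They were taken by gene name from the 4 tables of read counts, and all 10 passed the filter on low counts in every comparison. Levels are given as CPM, reads corrected for the size of the library, with TMM factors (trimmed mean of M-values).

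RNA was sequenced from whole mouse kidneys at embryonic day 18.5, in 24 libraries of 3 knockout lines, each with as many control littermates as knockouts. The groups are 3 Dmrt2 KO libraries and 3 controls, 6 Hmx3;Hmx2 KO libraries (loss of both genes) and 6 controls, and 3 libraries labelled Dmrt2;Hmx3;Hmx2 KO, here called labelled triple knockouts, and 3 controls. The labels describe neither the knockout alleles, nor a Cre driver, nor the genetic background. The sample descriptions mark the Hmx3;Hmx2 controls of replicates 1 to 3 as WT. For all other controls the labels do not say what alleles they carry. They also do not say that libraries of a group come from separate embryos, so a p-value here is set against the spread between libraries, which may be partly technical. The study concerned Dmrt2, Hmx2 and Hmx3, transcription factors of the intercalated cells of the collecting duct, which descend from the ureteric bud. Most of the genes described here belong to the other lineage of the kidney, the metanephric mesenchyme, and Pax2 is active in both.

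Nephron progenitors are the cap mesenchyme cells that sit around each tip of the branching ureteric bud in the outer zone of the fetal kidney. They renew themselves while some are induced to form the epithelium of the nephron, and in the mouse the pool is used up shortly after birth. Six2 and Osr1 hold the progenitor state, Cited1 marks its least committed cells, and Eya1, Sall1 and Pax2 are nuclear regulators without which kidneys do not form. Gdnf is the signal by which these cells make the ureteric bud grow and branch.

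In the Dmrt2 KO libraries Dmrt2 stood at 2.01 ± 0.378 CPM (SD, n = 3) against 13.7 ± 1.20 in controls. Hmx2 had 8 reads in all over the 6 Hmx3;Hmx2 KO libraries and 2 over the labelled triple knockouts, against 807 and 872 over their controls. Hmx3 had 6 and 0 reads in the same knockouts, against only 34 and 30 over their controls. With so few reads in controls, the loss of Hmx3 rests mainly on the labels. Dmrt2 was not lower in the labelled triple knockouts (18.6 ± 0.984 CPM against 11.4 ± 0.779 in controls), so the read counts do not show the loss of Dmrt2 that their label names. Whether Dmrt2 function was lost in them was not tested. Every direction below that comes from these libraries rests on the label. Libraries held 52286824 to 127339273 counted reads, so that 3 reads were worth 0.0236 to 0.0574 CPM. Of the 240 library values of the progenitor genes the lowest was 6.33 CPM, or 464 reads of Crym. By their Y-linked genes, 1 of 3 Dmrt2 KO libraries was from a male, against 3 of 3 controls. The males were 2 of 6 and 4 of 6 in the Hmx3;Hmx2 line, and 2 of 3 in both groups of the labelled triple line. Markers of other organs that could be caught in a dissection were scarce. The 7 skeletal muscle, 7 adrenal and 6 gonad genes examined summed to at most 10.2, 7.53 and 3.91 CPM in any library.

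Six2, Cited1 and Gdnf moved together from library to library, as described further on, while Itga8 did not follow them. The promoters of these 4 genes are shown for that reason, from 250 bases before to 50 after a RefSeq transcription start on GRCm38.p6, an earlier build than the mm39 of the counts. RefSeq promoters were matched for 6 of the 10 genes (13 promoters of Six2, Cited1, Gdnf, Itga8, Sall1 and Pax2), and the first listed for each of the 4 is printed, 5′ to 3′. Capitals mark matches to CCAAT, the box bound by NF-Y, to TATAAA, and to CAAGTG, a core bound by Hmx-family proteins, on either strand.
Six2 (chr17:85688205-85688504, minus strand): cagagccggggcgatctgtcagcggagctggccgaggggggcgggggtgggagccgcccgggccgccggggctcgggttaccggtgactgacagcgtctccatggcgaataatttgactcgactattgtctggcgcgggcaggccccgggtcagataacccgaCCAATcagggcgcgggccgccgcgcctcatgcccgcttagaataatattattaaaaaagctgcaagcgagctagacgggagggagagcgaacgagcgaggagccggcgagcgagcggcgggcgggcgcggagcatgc
Cited1 (chrX:102252132-102252431, minus strand): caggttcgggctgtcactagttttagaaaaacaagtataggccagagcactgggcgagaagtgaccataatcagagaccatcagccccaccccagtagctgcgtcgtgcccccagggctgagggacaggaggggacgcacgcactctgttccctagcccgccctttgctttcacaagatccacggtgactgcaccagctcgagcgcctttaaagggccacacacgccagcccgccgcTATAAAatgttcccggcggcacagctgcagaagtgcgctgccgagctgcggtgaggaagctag
Gdnf (chr15:7809798-7810097, plus strand): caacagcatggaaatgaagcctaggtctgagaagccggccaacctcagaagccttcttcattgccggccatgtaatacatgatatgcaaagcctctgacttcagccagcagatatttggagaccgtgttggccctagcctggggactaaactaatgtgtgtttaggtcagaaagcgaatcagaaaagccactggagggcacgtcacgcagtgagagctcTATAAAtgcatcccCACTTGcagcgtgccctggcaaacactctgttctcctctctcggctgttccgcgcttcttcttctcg
Itga8 (chr2:12301895-12302194, minus strand): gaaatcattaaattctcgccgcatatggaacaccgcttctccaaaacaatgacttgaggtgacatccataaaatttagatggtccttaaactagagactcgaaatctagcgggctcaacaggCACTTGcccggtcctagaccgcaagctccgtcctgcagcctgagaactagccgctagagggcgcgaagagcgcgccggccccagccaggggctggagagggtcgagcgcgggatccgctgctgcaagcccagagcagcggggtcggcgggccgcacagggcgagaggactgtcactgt
The Six2 promoter held CCAAT, that of Cited1 held TATAAA, and that of Itga8 held CAAGTG on the opposite strand, read as CACTTG. The Gdnf promoter held both TATAAA and CACTTG. Of the 13 promoters of these genes 4 held CCAAT, against 37.4% of all 32851 RefSeq promoters of this length. TATAAA was in 3 of 13 and CAAGTG in 4 of 13, and each was in 13.6% of all promoters. TCAGGTT, the core of the MEF3 site bound by Six2, was in 0 of 13 and in 4.07% of all. The printed matches do not overlap each other. They are matches of letters in a window, with no binding measured, and which start these kidneys use was not measured either.

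Levels were first set side by side per kilobase of exon, which is the scale on which genes of different length can be compared. Pax2, a paired-box factor of both the cap mesenchyme and the ureteric epithelium (chromosome 19, 44744484 to 44826310 on mm39), had the highest median over the 24 libraries, 62.9 CPM per kb. Sall1, a zinc-finger factor of the cap mesenchyme and some stroma (chromosome 8, 89753863 to 89770790), followed at 50.9, and Six2, the homeobox factor of self-renewal (chromosome 17, 85991705 to 85995702), at 47.4. Cited1, a transcriptional co-regulator on the X chromosome (chromosome X, 101290987 to 101295787), stood at 21.3 and Itga8, the integrin α8 receptor chain (chromosome 2, 12111443 to 12306733), at 17.6. Gdnf (chromosome 15, 7840327 to 7867056) stood at 11.3, Osr1, a zinc-finger factor (chromosome 12, 9620116 to 9631500), at 8.44, and Meox1, a homeobox factor (chromosome 11, 101768336 to 101785200), at 7.32. Crym, which encodes the thyroid hormone-binding μ-crystallin (chromosome 7, 119785603 to 119801334), stood at 5.99, and Eya1, the co-activator and phosphatase partner of Six2 (chromosome 1, 14239178 to 14380459), at 5.23 CPM per kb. Between every pair of neighbours in this order the ranges over the 24 libraries overlapped. These ranges also hold the differences between lines and tables, so they do not decide the order within a library. The ranges of Six2 (33.3 to 69.2) and Cited1 (14.2 to 33.7), for example, barely met. Within every single library Six2 was above Cited1, and Pax2 was above Sall1. In control replicate 1 of the labelled triple line, for example, Pax2 stood at 51.6 and Sall1 at 50.5 CPM per kb. Exon lengths are those of all annotated exons of a gene, including any not used in kidney.

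Between lines, Crym and Pax2 stood apart in the Dmrt2 line, in knockouts and controls alike, and Osr1 and Meox1 in its controls. Crym ran from 6.33 to 12.8 CPM in the 6 libraries of that line and from 15.7 to 30.9 in the other 18. Pax2 ran from 385 to 479.8 CPM in the Dmrt2 line and from 269 to 378 in the others. Osr1 ran from 19.6 to 37.3 CPM in the Dmrt2 controls, above both the Hmx3;Hmx2 controls (11.5 to 18.2) and the controls of the labelled triple line (13.4 to 17.1). Meox1 lay the same way, at 20.3 to 21.5 CPM in the Dmrt2 controls, 12.2 to 18.1 in the Hmx3;Hmx2 controls and 15.6 to 17.4 in the controls of the labelled triple line. Line, genetic background and deposited table cannot be told apart here, and these differences were not tested. The share of all genes that stand apart between lines in this way was not computed. The values therefore do not show that these genes differ from others in this.

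**Figure D1:**
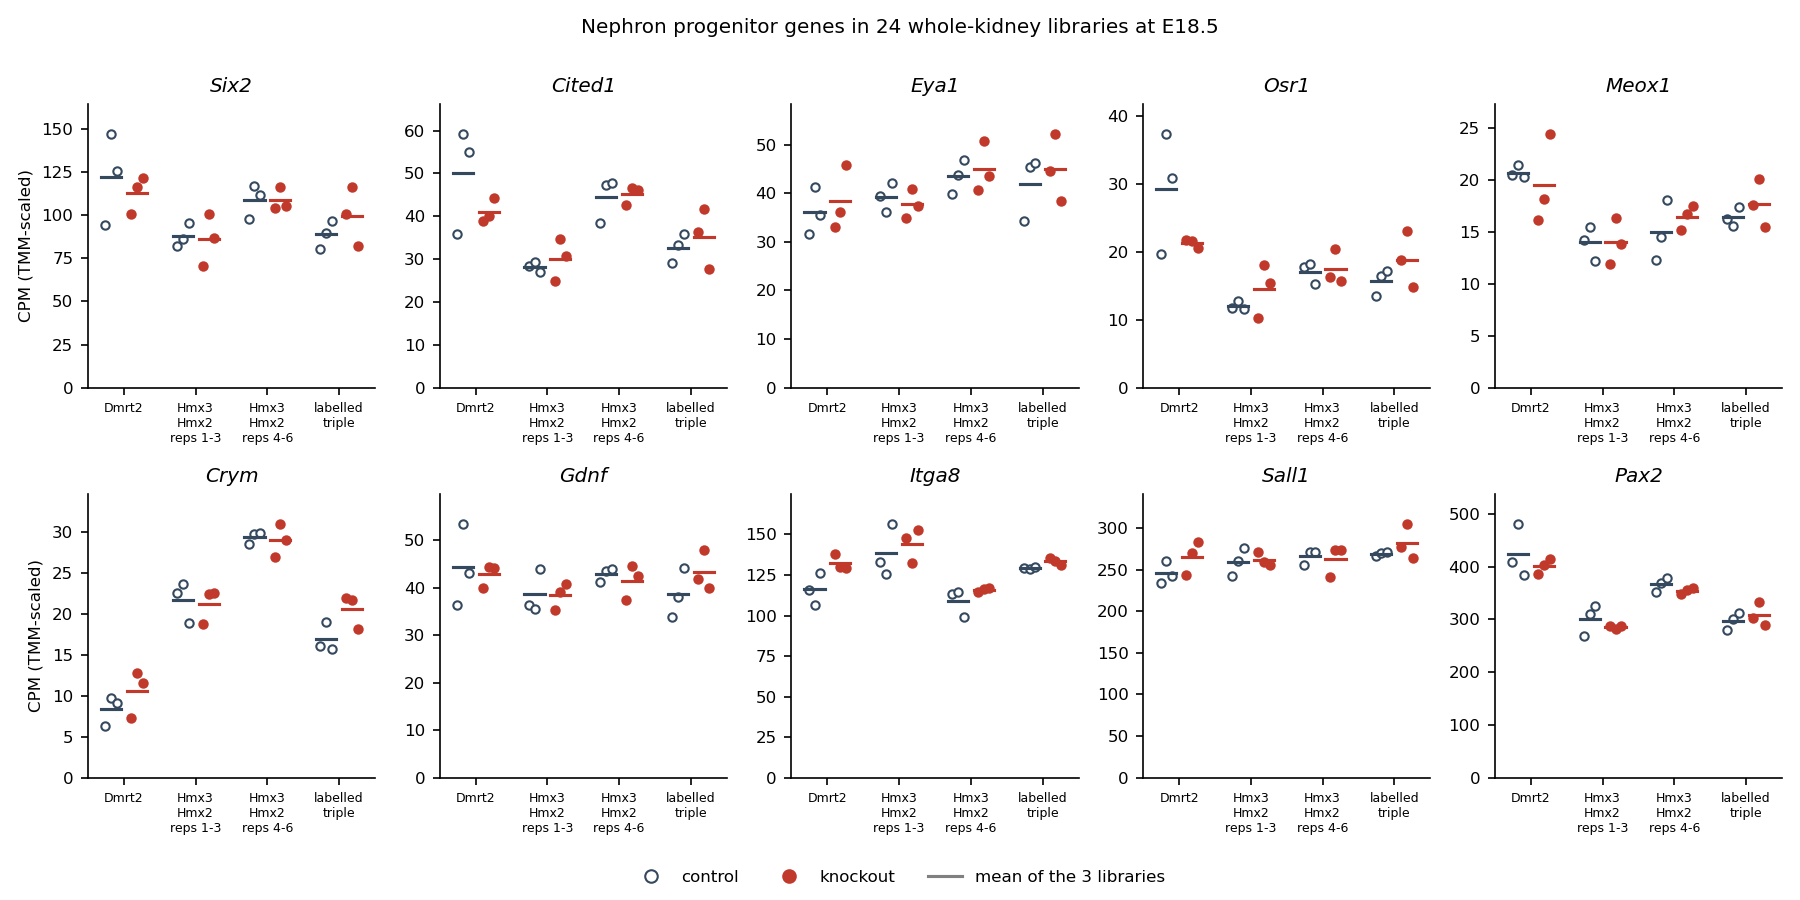
CPM (TMM-scaled, each axis from 0) of the 10 nephron progenitor genes in each of the 24 libraries, by deposited table, with open points for controls, filled points for knockouts and bars for the mean of the 3 libraries of a group in a table. Within the Dmrt2 and labelled triple lines only Itga8 has groups that do not overlap, Crym sits lowest in the Dmrt2 line, and the Osr1 controls of that line spread from 19.6 to 37.3 CPM.

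The Dmrt2 comparison shows whether the progenitor genes differ where Dmrt2 is lost. None of the 10 was called by edgeR, that is, passed an adjusted p of 0.05, nor by DESeq2, where edgeR called 0.444% of the 19807 genes tested (88 genes). Log2 fold changes, knockout minus control, were above 0 for 4 genes and below 0 for 6, with a median of −0.07 against −0.0021 over all genes tested. At an unadjusted p under 0.05 there was 1 of 10 (Itga8), against 12.3% of all genes.

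Six2 stood at 100.3, 116.2 and 121 CPM in the 3 Dmrt2 knockouts and at 94.0, 147 and 126 CPM in the 3 controls. The control libraries held both the lowest and the highest value, and the knockouts lay between them. The log2 fold change was −0.12 ± 0.17 (SE), with a 95% interval of −0.54 to 0.30 and an adjusted p of 0.85, so that differences from 0.688-fold to 1.23-fold are within the error.

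Cited1 stood at 39.0, 40.0 and 44.2 CPM in knockouts and at 35.9, 59.1 and 55.1 CPM in controls. Control replicate 1 lay below all 3 knockouts and controls 2 and 3 above them. The log2 fold change was −0.28 ± 0.19 (SE; adjusted p = 0.63). Osr1, which acts upstream of Six2 in the making of the cap mesenchyme, had the same arrangement. It stood at 21.8, 21.6 and 20.6 CPM in knockouts and at 19.6, 37.3 and 30.9 CPM in controls, a log2 fold change of −0.46 ± 0.23 (SE), with an interval of −1.04 to 0.13 and an adjusted p of 0.51.

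Both of these results turn on control replicate 1. Without it the log2 fold change of Osr1 was −0.67 (adjusted p = 0.0027 by edgeR) and that of Cited1 −0.47 (adjusted p = 0.0064), and both were called, while the other 8 genes were not. Over all genes 195 of 20291 were called without it, against 88 of 19807 with it included. That library had the highest share of mitochondrial reads of the 24, 2.54% against 1.73% to 2.30% in the other 5 libraries of the Dmrt2 line. It also had the lowest summed level of 8 proliferation genes in the line, 1010.0 against 1069 to 1306 CPM, and the highest of 10 proximal tubule genes, 4027 against 3106 to 3904 CPM. The part of these differences in the result was not tested.

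Itga8, the receptor on the mesenchyme that binds nephronectin of the ureteric bud, stood at 138, 130.0 and 129 CPM in knockouts and at 115.7, 106.8 and 127 CPM in controls. It was the only one of the 10 whose groups did not overlap, and 9.69% of all genes tested were higher in every knockout than in every control. The log2 fold change was 0.19 ± 0.07 (SE, unadjusted p = 0.015 by edgeR, adjusted p = 0.28). Exons of Itga8 overlap those of E030013I19Rik on the other strand, and with counting that ignored strand the reads of their shared stretch were not assigned to either.

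Crym stood at 7.32, 12.8 and 11.5 CPM in knockouts and at 6.33, 9.69 and 9.07 CPM in controls, with replicate 1 lowest in both groups and a log2 fold change of 0.33 ± 0.23 (SE; adjusted p = 0.62). The other 5 genes had overlapping groups and log2 fold changes from −0.08 (Pax2) to 0.11 (Sall1). Gdnf, at 39.9, 44.3 and 44.1 CPM in knockouts and 36.4, 53.3 and 43.2 CPM in controls, differed by −0.05 ± 0.12 (SE; adjusted p = 0.91). Its controls again held both the lowest and the highest value. With a covariate for Y-linked expression, which differs between these groups, the log2 fold change turned to −0.19 for Crym, −0.12 for Eya1 and −0.0063 for Sall1, none called.

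The Hmx3 Hmx2 comparison has the most libraries, 6 against 6, and the narrowest intervals for 8 of the 10 genes (those of Itga8 and Meox1 were narrower in the labelled triple comparison). None of the 10 genes was called by edgeR or DESeq2, where edgeR called 0.021% of the 19050 genes tested (4 genes), and none had an unadjusted p under 0.05, against 4.93% of all genes. No gene had groups that did not overlap (0.021% of all genes were higher in every knockout, and 0.0577% lower). All 10 log2 fold changes lay between −0.07 (Pax2) and 0.15 (Osr1), with a median of −0.0068 against −0.0052 over all genes tested.

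Six2 had a lowest, median and highest value of 70.5, 102.1 and 116.4 CPM in the knockouts and 82.3, 96.6 and 116.6 CPM in the controls. The groups covered the same range, with a log2 fold change of −0.02 ± 0.08 (SE) and a 95% interval that leaves room for 0.871-fold to 1.11-fold. Cited1 had 24.9, 38.6 and 46.5 CPM against 26.9, 33.9 and 47.7 CPM, again with overlapping groups (log2 fold change 0.05 ± 0.07 SE, interval −0.11 to 0.21). Sall1 and Pax2 had the narrowest intervals. Sall1 had 241, 265 and 274 CPM against 243, 265 and 276 CPM, a log2 fold change of −0.01 ± 0.04 (SE) and an interval of 0.940 to 1.06-fold. Osr1 had the widest interval of the 10, 0.919 to 1.34-fold, at 10.2, 16.0 and 20.3 CPM against 11.5, 14.02 and 18.2 CPM.

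Gdnf, whose first listed promoter holds a match to the Hmx-family core, had 35.2, 40.0 and 44.5 CPM in the knockouts and 35.5, 42.3 and 43.9 CPM in the controls. Its log2 fold change was −0.03 ± 0.06 (SE), an interval of 0.902 to 1.06-fold. Itga8, with the same core, had 114.4, 125 and 153 CPM against 98.8, 120.2 and 156 CPM (log2 fold change 0.07 ± 0.05 SE, interval 0.975 to 1.14-fold). Pax2 also has a match to this core, in a promoter that is not printed, and differed by −0.07 ± 0.04 (SE, interval 0.901 to 1.01-fold). Crym, which lies 11.4 Mb from the nearer Hmx gene on chromosome 7, had 18.7, 24.7 and 30.9 CPM against 18.9, 26.1 and 29.8 CPM (log2 fold change −0.03 ± 0.06 SE).

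For 4 of the 10 genes the Hmx3;Hmx2 libraries of the 2 deposited tables, replicates 1 to 3 and 4 to 6, did not overlap. In all 6 libraries of replicates 4 to 6 Cited1 (38.5 to 47.7 CPM) was above all 6 of replicates 1 to 3 (24.9 to 34.7 CPM), whatever the genotype. Crym (26.9 to 30.9 against 18.7 to 23.6 CPM) and Pax2 (348 to 378 against 269 to 325 CPM) lay the same way. Itga8 was lower in replicates 4 to 6 (98.8 to 117 CPM against 126 to 156 CPM). Of all genes tested 9.88% were higher without overlap in replicates 4 to 6 and 7.6% lower. A difference of the knockout effect between the tables was called by edgeR for 0 of the 10 genes and 0 of the 19050 genes tested (0.0%). At an unadjusted p under 0.05 there were 0 of the 10 and 404 of all genes, and DESeq2 called 1 gene, which is none of the 10.

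In the labelled triple comparison none of the 10 genes was called by edgeR or DESeq2, where edgeR called 1.03% of the 21537 genes tested (222 genes). All 10 log2 fold changes were above 0, from 0.05 (Itga8) to 0.29 (Crym), with a median of 0.11, against 0.00 and 50.2% above 0 over all genes tested. These genes vary together between libraries, so the 10 signs are not 10 separate observations. At an unadjusted p under 0.05 there was 1 of 10 (Crym), against 17.9% of all genes.

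Crym stood at 21.9, 21.7 and 18.1 CPM in the labelled triple knockouts and at 16.0, 18.9 and 15.7 CPM in their controls. The lowest knockout lay under the highest control, and the log2 fold change was 0.29 ± 0.10 (SE, unadjusted p = 0.014 by edgeR, adjusted p = 0.18). Without the filter on low counts it passed, at 0.28 with an adjusted p of 0.025, where 4.46% of all genes did. That fit gave nearly all genes a common spread (median denominator degrees of freedom 135408, against 11.6 with the filter). Osr1 stood at 18.7, 23.0 and 14.8 CPM in knockouts and 13.4, 16.4 and 17.1 CPM in controls (0.27 ± 0.16 SE, adjusted p = 0.42). Six2 stood at 100.6, 116.02 and 82.0 CPM in knockouts and 80.1, 89.7 and 96.3 CPM in controls (0.17 ± 0.14 SE, adjusted p = 0.56). In both genes knockout replicate 2 was the highest and knockout replicate 3 the second lowest of the 6 libraries.

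Itga8 stood at 136, 134 and 131 CPM in knockouts and 129.5, 129 and 129.7 CPM in controls. The groups did not overlap (11.6% of all genes tested were higher in this way), yet the log2 fold change was only 0.05 ± 0.04 (SE; adjusted p = 0.59). The other 6 genes had overlapping groups and log2 fold changes from 0.06 (Pax2) to 0.16 (Gdnf).

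**Figure D2:**
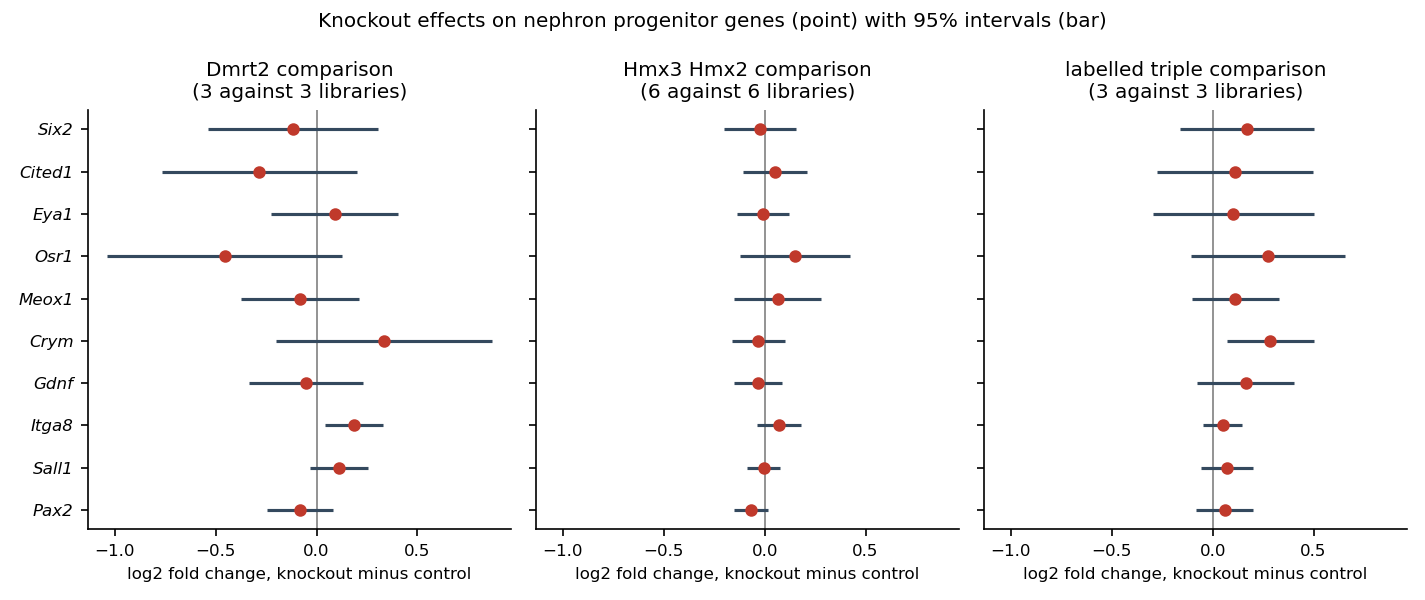
Log2 fold change of each progenitor gene, knockout minus control, in the 3 comparisons (points) with 95% intervals from the edgeR quasi-likelihood fit (bars). Intervals are narrowest in the Hmx3 Hmx2 comparison except for Itga8 and Meox1, and only those of Itga8 in the Dmrt2 comparison (0.04 to 0.33) and Crym in the labelled triple comparison (0.07 to 0.50) leave out 0, before adjustment.

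Differences between knockout effects were tested in 1 fit of all 24 libraries, in which each effect is relative to the controls of its own table. None of the 10 genes was called for the labelled triple effect minus the Dmrt2 effect (0.394% of 22101 genes called), the labelled triple effect minus the Hmx3 Hmx2 effect (0.968%) or the Dmrt2 effect minus the Hmx3 Hmx2 effect (0.154%). At an unadjusted p under 0.05 there were 1, 0 and 1 of the 10, and DESeq2 called none of them either. The widest gap was that of Osr1. Its effect was higher in the labelled triple than in the Dmrt2 comparison by 0.72 ± 0.30 (SE; log2, interval 0.10 to 1.35, unadjusted p = 0.026 by edgeR, adjusted p = 0.36). Against the Hmx3 Hmx2 effect that of Dmrt2 on Osr1 differed by −0.61 ± 0.26 (SE; unadjusted p = 0.031 by edgeR, adjusted p = 0.61). Both use the Dmrt2 controls, among them the replicate described above.

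Within groups 7 of the 10 progenitor genes varied more than the median gene of these libraries. The standard deviation of log2 CPM around the mean of a group in a table was 0.28 for Osr1, 0.22 for Crym, 0.22 for Cited1, 0.20 for Six2, 0.20 for Meox1, 0.18 for Eya1 and 0.16 for Gdnf. It was 0.094 for Pax2, 0.094 for Itga8 and 0.082 for Sall1, under the median of 0.098 over the 15039 genes with a mean of at least 1 CPM. Those 3 also had the highest CPM of the 10.

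Most members moved together in these deviations. Six2 followed Cited1 with a Pearson r of 0.921 over the 24 libraries (Spearman rho 0.868), and r was 0.881 without the 2 libraries farthest from the median of Six2, Dmrt2 control replicate 1 and Hmx3;Hmx2 KO replicate 1. By table it was 0.945 in the Dmrt2 line, 0.809 and 0.882 in the 2 tables of the Hmx3;Hmx2 line, and 0.996 in the labelled triple line. For Osr1 r with Six2 was 0.855 (rho 0.716) and 0.771 without those 2 libraries, but only 0.364 in replicates 4 to 6 of the Hmx3;Hmx2 line. For Gdnf it was 0.843 (rho 0.837; 0.799 without the 2) and for Eya1 0.823 (rho 0.838; 0.838 without the 2). These are descriptions of deviations that sum to 0 within each group of a table, and the libraries of a table share their processing.

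Over all 45 pairs of members the median r was 0.544 and 37 were above 0. Of the 8 pairs below 0, all involved Itga8, with Meox1 as its most opposed partner (r −0.596, rho −0.559). With Six2, Itga8 had an r of −0.152 (rho −0.103). By table this r was −0.417 in the Dmrt2 line, −0.07 and −0.138 in the Hmx3;Hmx2 line, and 0.539 in the labelled triple line. For Itga8 with Meox1 it was −0.413, −0.843, −0.742 and 0.535 in the same order. The description of Itga8 thus holds for the libraries together and not in the labelled triple line. In whole kidney, fewer progenitor cells and less RNA of a gene per cell cannot be told apart.

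**Figure D3:**
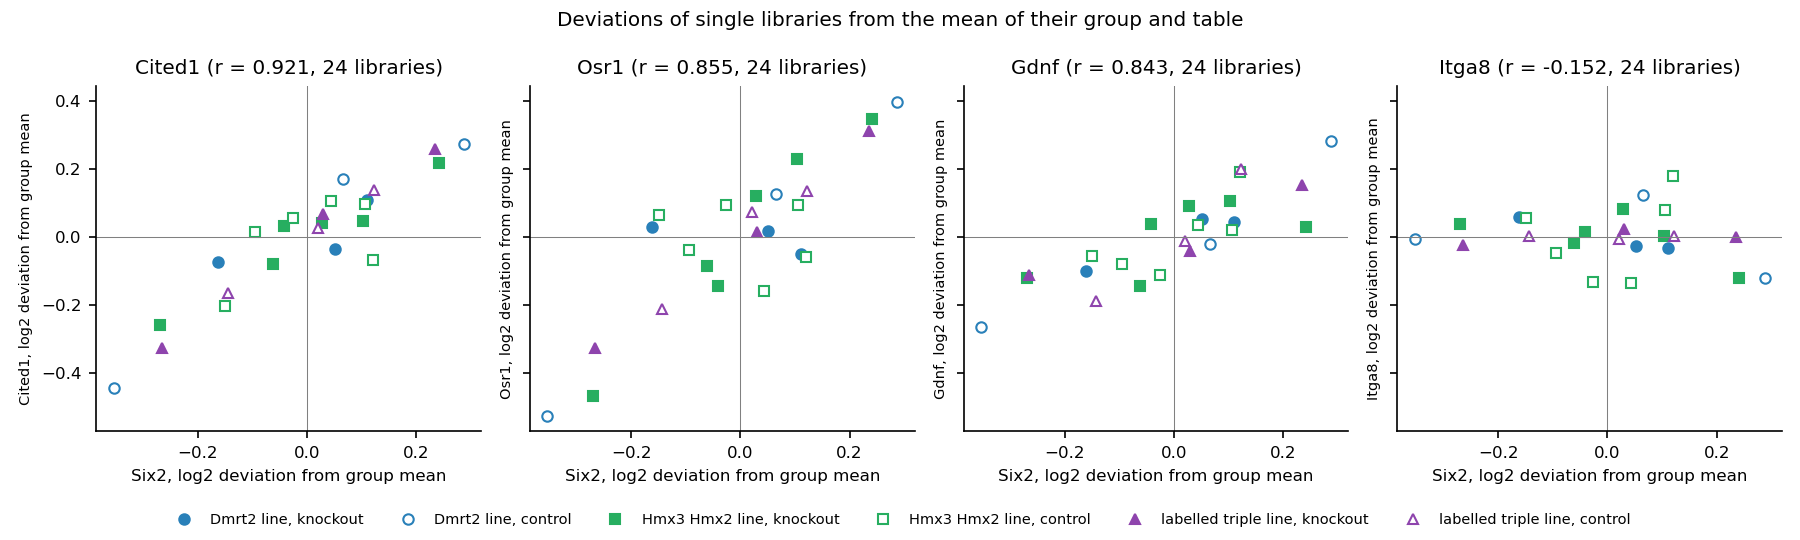
Each point is 1 of the 24 libraries, placed by the log2 deviation of Six2 (horizontal) and of Cited1, Osr1, Gdnf or Itga8 (vertical) from the mean of its group in its table, with colour and shape for the line and filled points for knockouts. Cited1, Osr1 and Gdnf lie along a rising line from Dmrt2 control replicate 1, the lowest, to Dmrt2 control replicate 2, the highest, while Itga8 shows none (r −0.152).

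The 8 genes of 15038 whose deviations were most like those of Six2 were Ints5 (r 0.930), Hdgf (0.923), Cited1 (0.921), Dcakd (0.914), Mcm3 (0.913), Rcc2 (0.910), Kars (0.902) and Jpt1 (0.901). Cited1 was thus the third nearest gene, and the only member among the 8. Osr1 ranked 55, Gdnf 72 and Eya1 110, and Itga8 10228. Over all genes the median r with Six2 was 0.0357, and the 5th and 95th percentiles were −0.535 and 0.667. Of the 15038 genes 8037 had an r above 0 and 7001 below.

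Gene lists were then placed on the same scale. Of 13 other progenitor genes 11 had an r above 0 (median 0.639), with Spock2, a proteoglycan of the cap mesenchyme, at 0.892, Mycn, a proliferation factor, at 0.888 and the homeobox gene Hoxc10 at 0.874. Dapl1 (−0.612) and Ncam1 (−0.00993) were the exceptions. Of 10 Gdnf receptor and response genes of the ureteric tip, all 10 were above 0 (median 0.556), including the target Spry1 (0.834), the ETS factors Etv4 (0.814) and Etv5 (0.806) and the receptor Ret (0.676). Genes of committed precursors had a median of 0.256 and signals that keep or induce progenitors 0.235. In the list of Itga8 partners and ligands all 6 genes were below 0 by Pearson r (median −0.200), with nephronectin, Npnt, at −0.452. This list also holds Grem1, a secreted BMP antagonist, at −0.0262. Spearman rho was slightly above 0 for Fras1 (0.00783) and Frem2 (0.00696). All 6 lay between the 5th and 95th percentile of all genes (−0.535 and 0.667).

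Of genes of other kidney cells, all 8 proliferation genes were above 0 (median 0.623) and all 10 proximal tubule genes below 0 (median −0.419). Of 7 podocyte genes 6 were below 0 (median −0.566). The seventh was Wt1 (0.450), which progenitors also express and which the list of other progenitor genes holds too. In 8 stromal genes the median was 0.350, with Foxd1 of the nephrogenic stroma at 0.719. The 6 intercalated genes had a median of −0.249 and the 6 smooth muscle genes −0.287, with 5 of 6 below 0 in each, and the paralogues of the members had a median of 0.394.

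**Figure D4:**
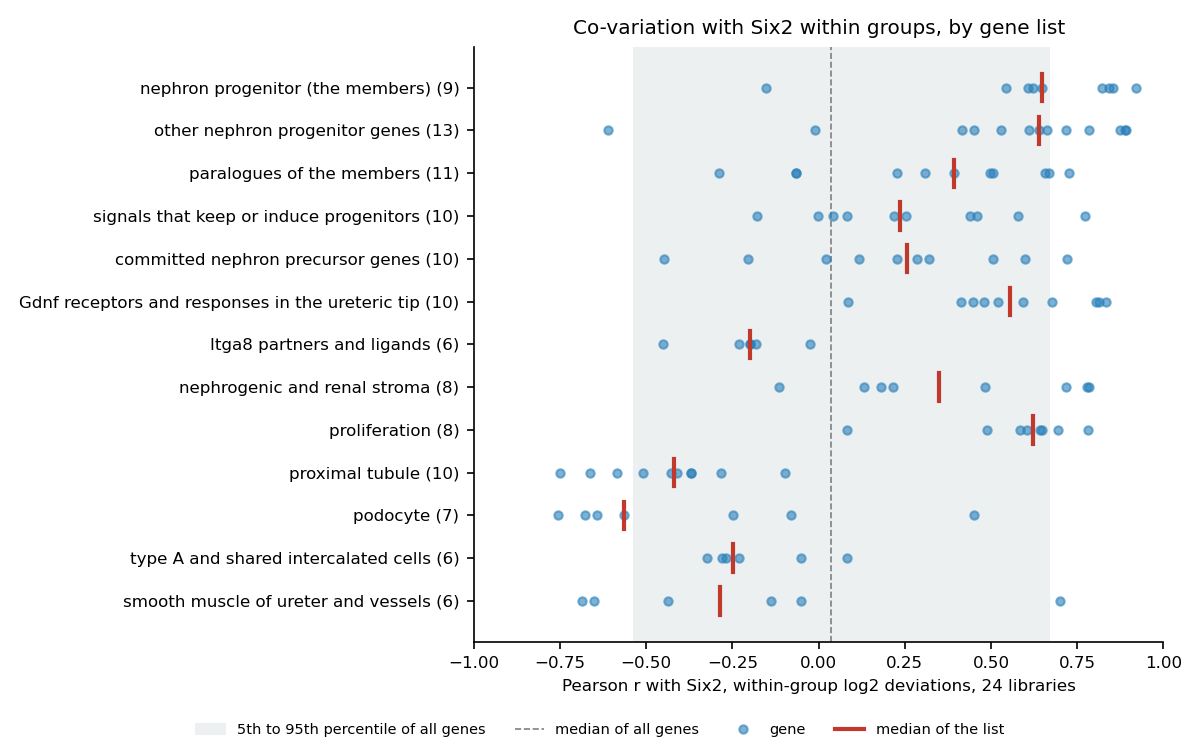
Pearson r with Six2 of the within-group log2 deviations over 24 libraries (horizontal), for the genes of 13 lists (points; number of genes in brackets), with a red bar at the median of each list. The grey band holds the 5th to 95th percentile of all 15038 genes (−0.535 to 0.667); proximal tubule genes lie wholly below 0 and proliferation and ureteric tip genes wholly above.

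Of the 62 places in the 6 lists of pathway genes (61 genes, since Pax8 stands in 2 lists), none was called by edgeR with the filter in any of the 3 comparisons. At an unadjusted p under 0.05 there were 13 of 60, 2 of 59 and 12 of 60 genes tested, against 12.3%, 4.93% and 17.9% of all genes. DESeq2 called 4 (Notch2, Sall3, Tmem100 and Wnt4), 0 and 1 (Notch2) of them, and 2.17%, 0.0262% and 5.04% of all genes. Without the filter on low counts edgeR called 7 in the Dmrt2 comparison (Fras1, Frem2, Gfra1, Notch2, Sall3, Tmem100 and Wnt4), 0 in the Hmx3 Hmx2 comparison and 5 in the labelled triple comparison (Dchs1, Frem1, Grem1, Notch2 and Sox9). All genes were then called at 2.1%, 0.0117% and 4.46%. Among 13 other progenitor genes 9 lay below 0 and 4 above in the Dmrt2 comparison, 9 below and 4 above in the Hmx3 Hmx2 comparison, and 3 below and 10 above in the labelled triple comparison. Their median log2 fold changes were −0.05, −0.03 and 0.05. Tmem100, a membrane protein gene, had the lowest value of that list in all 3 comparisons. It stood at 16.2 ± 2.97 against 21.5 ± 1.72 CPM in the Dmrt2 comparison (−0.41 ± 0.12 SE, adjusted p = 0.19), with all 3 knockouts under all 3 controls (7.71% of all genes tested). DESeq2 called it there (adjusted p = 0.031), and so did edgeR without Dmrt2 KO replicate 3 (log2 fold change −0.56, adjusted p = 0.049). That fit called 73 of 20358 genes. No other fit of the Dmrt2 comparison with a library left out called Tmem100. In the Hmx3 Hmx2 and labelled triple comparisons the log2 fold change was −0.15 ± 0.07 (SE; adjusted p = 0.94) and −0.18 ± 0.10 (SE; adjusted p = 0.39), with overlapping groups.

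Of the 13 paralogues of the members 12, 11 and 12 could be tested in the 3 comparisons. Sall3, a paralogue of Sall1, stood at 26.7 ± 1.62 against 20.4 ± 3.36 CPM in the Dmrt2 comparison (0.39 ± 0.11 SE, adjusted p = 0.19 by edgeR and 0.031 by DESeq2). Without Dmrt2 control replicate 1 edgeR called it too (log2 fold change 0.52, adjusted p = 0.022), where 195 of all 20291 genes were called. In the labelled triple comparison it differed by 0.00 ± 0.07 (SE). Osr2, the paralogue of Osr1, was the lowest of its list in the labelled triple comparison at 72.6 ± 3.19 against 81.8 ± 3.66 CPM (−0.17 ± 0.05 SE, adjusted p = 0.16).

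Among the signals, Notch2, the receptor by which progenitors leave the progenitor state, stood at 222 ± 19.3 against 182 ± 16.4 CPM in the labelled triple comparison (0.28 ± 0.08 SE, adjusted p = 0.11). In the Dmrt2 comparison it stood at 197 ± 5.41 against 164 ± 2.84 CPM (0.26 ± 0.05 SE, adjusted p = 0.054). All 3 knockouts were above all 3 controls in both, as for 11.6% and 9.69% of all genes tested. DESeq2 called it in both as well (adjusted p = 0.011 in the labelled triple and 0.00069 in the Dmrt2 comparison). In the labelled triple comparison without its control replicate 3 edgeR called it too (log2 fold change 0.35, adjusted p = 0.030). Fat4 of the same list was also called there. Over all genes that fit called 438 of 22296, against 222 of 21537 with the replicate included. In the Hmx3 Hmx2 comparison Notch2 differed by 0.10 ± 0.12 (SE; adjusted p = 0.97). Fgf20, a growth factor that keeps progenitors, had the highest value of its list in the Dmrt2 comparison, 0.59 ± 0.26 (SE; adjusted p = 0.38), at a low level of 1.38 ± 0.152 against 0.912 ± 0.261 CPM.

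Wnt4, the signal by which induced progenitors become epithelium, stood at 141 ± 8.60 against 164 ± 6.71 CPM in the Dmrt2 comparison, with all 3 knockouts under all 3 controls (7.71% of all genes tested; −0.22 ± 0.06 SE, adjusted p = 0.15 by edgeR and 0.034 by DESeq2). It differed by −0.07 ± 0.04 (SE) in the Hmx3 Hmx2 and by −0.01 ± 0.07 (SE) in the labelled triple comparison, neither called. Gfra1, the co-receptor of Gdnf, stood at 92.1 ± 7.01 against 77.6 ± 7.40 CPM in the Dmrt2 comparison (0.25 ± 0.07 SE, adjusted p = 0.20), beside the value near 0 of Gdnf itself. Frem2, of the basement membrane complex that presents nephronectin to Itga8, had the highest value of its list in the Dmrt2 comparison (0.24 ± 0.07 SE, adjusted p = 0.21) and the labelled triple comparison (0.51 ± 0.16 SE, adjusted p = 0.20). Grem1, a secreted BMP antagonist, had the lowest in both, at under 2 CPM.

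Of the other kidney cell types, all 6 intercalated genes were below 0 in the Dmrt2 comparison. Of these, 3 (Slc4a1, Aqp6 and Atp6v1g3) were called lower by edgeR, where 0.444% of all genes were called in either direction. In the labelled triple comparison 4 of the 6 were below 0 and the same 3 were called lower, where 1.03% of all genes were called. In the Hmx3 Hmx2 comparison all 6 were above 0 and none was called. No gene of the stroma, proliferation, proximal tubule, podocyte or smooth muscle lists was called in any of the 3 comparisons of knockouts with controls. Between effects, the proximal tubule gene Fbp1, named after its value was seen, was called lower for the labelled triple effect minus the Hmx3 Hmx2 effect (adjusted p = 0.017). The 6 smooth muscle genes summed to 550.3 to 584 CPM in Dmrt2 knockouts and 632 to 747 CPM in their controls, without overlap. Of all single genes tested 7.71% were lower in this way. The sum is mostly Acta2, whose mean over the 24 libraries was 485 CPM. The 8 proliferation genes were all above 0 in the Dmrt2 comparison (median 0.14), and summed to 1177 to 1306 CPM in knockouts and 1010.0 to 1203 CPM in controls. In the labelled triple comparison 7 of these 8 were below 0 (median −0.17), where all 10 progenitor genes were above 0. Their part in the values of the progenitor genes was not tested.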

How the data were processed

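Poly(A)-selected RNA of whole kidneys was sequenced at 150 bp, per the labels. The values are raw read counts per gene, deposited by the authors in 4 tables (2 for the Hmx3;Hmx2 line) without normalization. Per the submitters' processing notes, fastp 0.20.1, STAR 2.7.0e, featureCounts 2.0.1 and the build mm39 were used. The file headers give featureCounts 2.0.3 instead, with single reads rather than pairs as the unit, no strand, and no multi-mapping or overlapping reads. Both reads of a pair are thus counted, and 87.9% to 94.1% of counts from 1 to 19 were even. Reads carry no molecular identifiers, so depth covers counting error only. Left out were 2 columns whose names fit no sample.

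The groups come from the sample titles. Each knockout was compared with controls of its own line by edgeR 4.0.16 (R 4.3.3): TMM, filterByExpr (minimum count 10, total 15), a robust quasi-likelihood F test, and p-values adjusted after Benjamini and Hochberg over all genes tested, with a threshold of 0.05. The Hmx3 Hmx2 comparison had the table as a term. Effects were compared in a fit of all 24 libraries with the table as a term. An SE is the absolute log2 fold change over the square root of F. CPM use TMM factors of the 24 libraries together. Deviations are log2 CPM (prior count 2) minus the mean of the group in its table. Alternatives were RLE size factors, DESeq2 1.42.0, no filter, a minimum mean of 1 CPM, a joint fit, tables apart or without their term, a covariate for Y-linked expression, replicate number as a block, and each library left out.

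The genes named are the 10 members, in each comparison the highest and lowest gene of each pathway list and any gene called, and the 8 genes most like Six2. Not every gene this rule gives is reported here. Others are named beside them where a count or a correlation is broken down, or where a value in another comparison is set beside one the rule named, and were chosen after their values were seen. Members and lists were chosen with earlier results of these data known. The lists cover other progenitor genes, paralogues, signals, committed precursors, Gdnf receptors and responses, Itga8 partners, and markers of stroma, proliferation, proximal tubule, podocytes, intercalated cells, smooth muscle, skeletal muscle, adrenal gland and gonad. No duplicate was found within a group and table: in all 24 such pairs the chi-square, divided by its degrees of freedom, was 5.61 or more (genes with 50 reads or more in the pair). Pairs across groups or tables were not compared.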

Additional observations from a re-analysis of the deposited data

How the results depend on the processing

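Of 128 alternative counts of called progenitor genes, over 3 comparisons and 4 differences between effects, 126 stayed within 1.5 times the reported 0. The exceptions were 1 gene without the filter in the labelled triple comparison (Crym) and a range of 0 to 2 when each library was left out in the Dmrt2 comparison (2 without control replicate 1, Osr1 and Cited1). Over all genes these 2 settings called 1510 of 33852 and 195 of 20291. Of 1052 alternative values of named genes 994 kept their direction and side of the threshold, 18 became called, 0 were lost and 40 changed sign. The cause was not tested, except that leaving out a library leaves fewer samples.

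With a covariate for Y-linked expression the Dmrt2 comparison gave Eya1 −0.12, Crym −0.19 and Sall1 −0.0063, and the Hmx3 Hmx2 comparison gave Cited1 −0.012, none called. In the Hmx3 Hmx2 comparison replicates 4 to 6 alone gave Eya1 0.041, Eya2 0.036 and Itgb1 0.028, replicates 1 to 3 alone gave Sall1 0.017 and Lef1 −0.030, and a minimum mean of 1 CPM gave Sall1 0.0005395. Leaving out each library in turn, signs changed within these ranges of log2 fold change. In the Dmrt2 comparison they were −0.27 to 0.0321 for Six2, −0.0593 to 0.19 for Eya1, −0.27 to 0.0389 for Meox1, −0.17 to 0.10 for Gdnf, −0.15 to 0.00945 for Pax2 and −0.0866 to 0.18 for Spock2. In the Hmx3 Hmx2 comparison they were −0.0808 to 0.0344 for Six2, −0.00727 to 0.0995 for Cited1, −0.0498 to 0.0209 for Eya1, −0.0725 to 0.00671 for Crym, −0.0576 to 0.00938 for Gdnf, −0.0272 to 0.0203 for Sall1, −0.00554 to 0.13 for Ret and −0.0233 to 0.00689 for Itgb1. In the labelled triple comparison they were −0.0268 to 0.25 for Cited1, −0.0305 to 0.19 for Eya1 and −0.000219 to 0.0910 for Pax2.

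With replicate number as a block, 0 progenitor genes were called in each of the 3 comparisons and 4 differences. Over all genes the block moved the calls from 88 to 80 (Dmrt2), from 4 to 5 (Hmx3 Hmx2) and from 222 to 51 (labelled triple). The numbers do not pair the libraries: correlations of same-numbered deviations ran from 0.0553 to 0.168, from −0.133 to 0.38 and from −0.416 to −0.127. Of 3, 6 and 3 pairs, 2, 3 and 0 correlated best with their own number. Over all genes DESeq2 called 429, 5 and 1085 in the 3 comparisons, the fit without filter 676, 4 and 1510, and the joint fit 132, 4 and 573. The Y-linked covariate left 13 calls in the Dmrt2 comparison, where sex and genotype are partly confounded.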

Other observations

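Tests for a single library far from the others of its group were run in the 20 groups of 6 Hmx3;Hmx2 libraries (10 genes, knockouts and controls), and none stood out, where chance alone would give about 1 in 20. Each of these groups pools both deposited tables, so the spread holds the difference between tables, which for Cited1, Crym, Pax2 and Itga8 left no overlap. Groups of 3 libraries were not tested in this way.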
